A study of Homo sapiens with 23 samples.

Results

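The CUT homeobox family was followed through 6 genes, chosen by name but with earlier results of these data known: ONECUT1, ONECUT2, ONECUT3, CUX1, CUX2 and SATB1. They are 6 of the 80625 distinct genes and identifiers in the 3 count tables. The study changed the level of ONECUT2 (OC2) in 2 androgen-sensitive human prostate cancer cell lines, LNCaP and LAPC4, and measured RNA in 23 libraries of 9 groups. The overexpression groups were LNCaP with OC2 OE (2 libraries) beside LNCaP Control (2), and LAPC4 with OC2 OE (3) beside LAPC4 Vec (3). The knockdown groups were LNCaP with shOC2 (2), a short hairpin named for OC2, beside LNCaP with shCon (2). In the drug experiment LNCaP cells received for 7 days a combination of the antiandrogen enzalutamide at 10 µM with an OC2 inhibitor at 10 µM (3), enzalutamide at 10 µM alone (3), or vehicle (3). All LNCaP cells grew in serum-containing RPMI, and all LAPC4 cells, both groups alike, in serum-containing IMDM with 1 nM of the synthetic androgen R1881. The vector, the hairpin's target sequence, the number of clones and the chemical identity of the inhibitor were not stated in the labels. Nor do the labels say that the libraries of a group came from separate cultures, so each p-value measures the spread between these libraries, which may be technical.

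CUT proteins bind DNA through a CUT domain that works together with a homeodomain. ONECUT proteins carry a single CUT domain, CUX proteins several, and SATB1 is a more distant relative that binds AT-rich DNA and organises chromatin loops. ONECUT1, also called HNF6, is a liver and pancreas factor, and ONECUT genes also act in developing neurons and retina. CUX1 is broadly expressed and acts in proliferation and DNA repair, CUX2 is best known from upper-layer neurons of the cortex, and SATB1 from T cells. In prostate cancer, ONECUT2 has been studied as a driver of lineage change.

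The 6 genes lie on 6 chromosomes (hg38, GENCODE 29). ONECUT2 spans chr18:57435685-57491297 on the plus strand and has 16234 exonic bases. ONECUT1 spans chr15:52756989-52791078 on the minus strand with 3850 exonic bases, and ONECUT3 spans chr19:1752373-1780988 on the plus strand with 8318. CUX1 spans chr7:101815904-102283958 on the plus strand with 17789 exonic bases, and CUX2 spans chr12:111034024-111350554 on the plus strand with 7648. SATB1 spans chr3:18345387-18445588 on the minus strand with 13409 exonic bases, of which 211 are shared with TBC1D5. The 3 ONECUT genes are paralogs, so a strongly expressed copy could in principle lend reads to another. The coding sequence of ONECUT2 was 75.8% identical to that of ONECUT1 and 71.1% identical to that of ONECUT3. The longest run without a difference was 23 bases against ONECUT1 and 32 against ONECUT3. Of 1466 windows of 50 bases in the ONECUT2 coding sequence, 0 occurred without a mismatch in either paralog. This covers exact matches only, and whether reads of ONECUT2 were counted for a paralog was not tested. The stretches printed here lie in the first coding exons, and those of ONECUT2 and ONECUT3 surround their shared run of 32 bases. They were read side by side with no gap, so bases shifted by an insertion count as different. The stretches hold 14 differences from ONECUT2 in ONECUT1 and 31 in ONECUT3. They are coding strand, 5′ to 3′, from chr18:57436260-57436351 (plus), chr15:52789388-52789479 (minus) and chr19:1754125-1754216 (plus), and capitals mark bases that differ from ONECUT2.
ONECUT2: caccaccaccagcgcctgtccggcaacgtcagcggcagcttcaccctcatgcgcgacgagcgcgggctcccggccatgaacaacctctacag
ONECUT1: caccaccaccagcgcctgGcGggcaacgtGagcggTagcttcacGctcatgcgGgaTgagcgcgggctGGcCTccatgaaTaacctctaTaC
ONECUT3: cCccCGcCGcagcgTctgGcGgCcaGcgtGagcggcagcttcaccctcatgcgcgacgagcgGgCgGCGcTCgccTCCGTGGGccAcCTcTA

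In the LNCaP control, shCon and vehicle groups the family was mostly CUX1. Per kilobase of exon, CUX1 made up 76.8% ± 3.76 of the summed CPM (read counts scaled to a common library size) of the 6 genes in LNCaP control (SD, n = 2), 70.2% ± 1.33 in shCon (n = 2) and 83.0% ± 1.59 in vehicle (n = 3). ONECUT2 held 22.5% ± 3.44 in LNCaP control, 22.5% ± 0.637 in shCon and 14.8% ± 1.13 in vehicle. LAPC4 Vec cells had another make-up, with 45.5% ± 0.272 CUX1, 27.2% ± 3.29 SATB1, 17.8% ± 3.68 CUX2 and 9.44% ± 1.15 ONECUT2 (n = 3). With OC2 overexpression ONECUT2 reached 80.6% ± 1.55 of the family in LNCaP (n = 2) and 88.3% ± 1.18 in LAPC4 (n = 3). With shOC2 it held 11.2% ± 0.184 (n = 2). The combination left ONECUT2 at 7.20% ± 0.744, against 14.8% ± 1.13 in vehicle, with ONECUT2 itself at 14.3 CPM with the combination and 15.9 CPM with vehicle and CUX1 at 201 and 97.6 CPM. Lengths are those of all annotated exons. If the introduced ONECUT2 lacks untranslated parts, which is not stated, its share in overexpressing cells is understated.

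**Figure D1:**
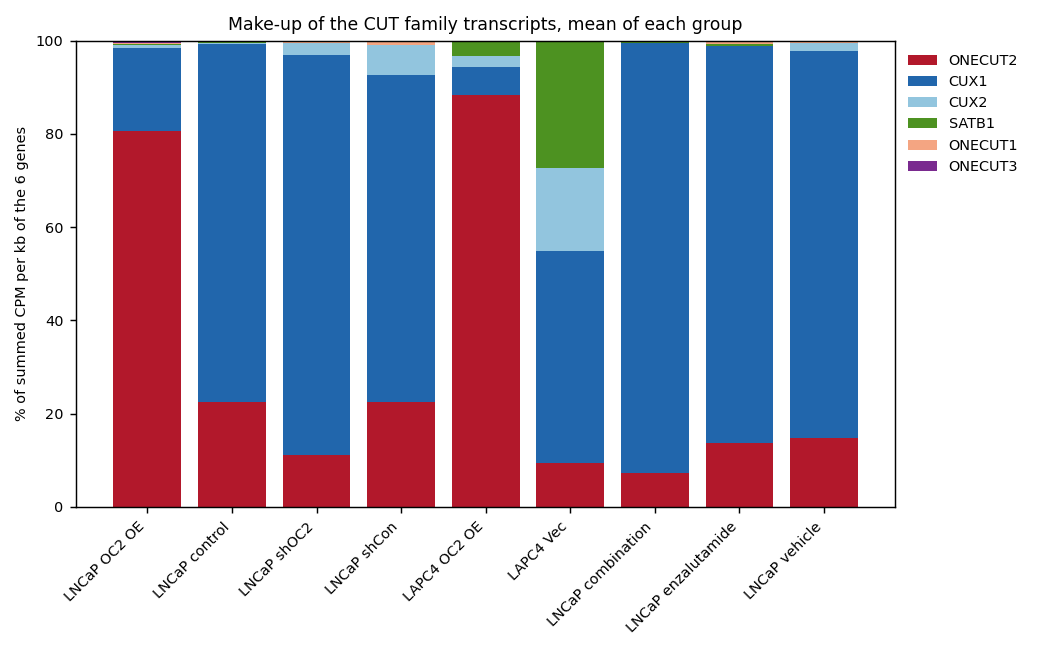
Share of each gene in the summed CPM per kilobase of the 6 CUT family genes, as the mean of the libraries of each of the 9 groups. CUX1 is the largest part everywhere except in the OC2 OE groups, where ONECUT2 reaches 80.6% (LNCaP) and 88.3% (LAPC4), and SATB1 and CUX2 hold 27.2% and 17.8% in LAPC4 Vec.

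The order of ONECUT2 levels is given here in CPM, scaled within each table, so levels from different tables are only loosely comparable. LAPC4 OC2 OE was highest (895 ± 82.7 CPM, n = 3), followed by LNCaP OC2 OE (318 ± 20.1, n = 2). LNCaP control (27.6 ± 4.30 CPM, n = 2) and enzalutamide (26.1 ± 4.81, n = 3) came next, with overlapping ranges. ShCon stood at 20.8 ± 0.585 CPM (n = 2), reaching the lowest enzalutamide column. Vehicle (15.9 ± 1.57 CPM, n = 3), LAPC4 Vec (15.5 ± 1.97, n = 3) and combination (14.3 ± 1.43, n = 3) overlapped one another. ShOC2 was lowest at 12.1 ± 0.020 CPM (n = 2), below every other library. Thus ONECUT2 RNA was measurable in every library, and its level was lower with shOC2 than with shCon.

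**Figure D2:**
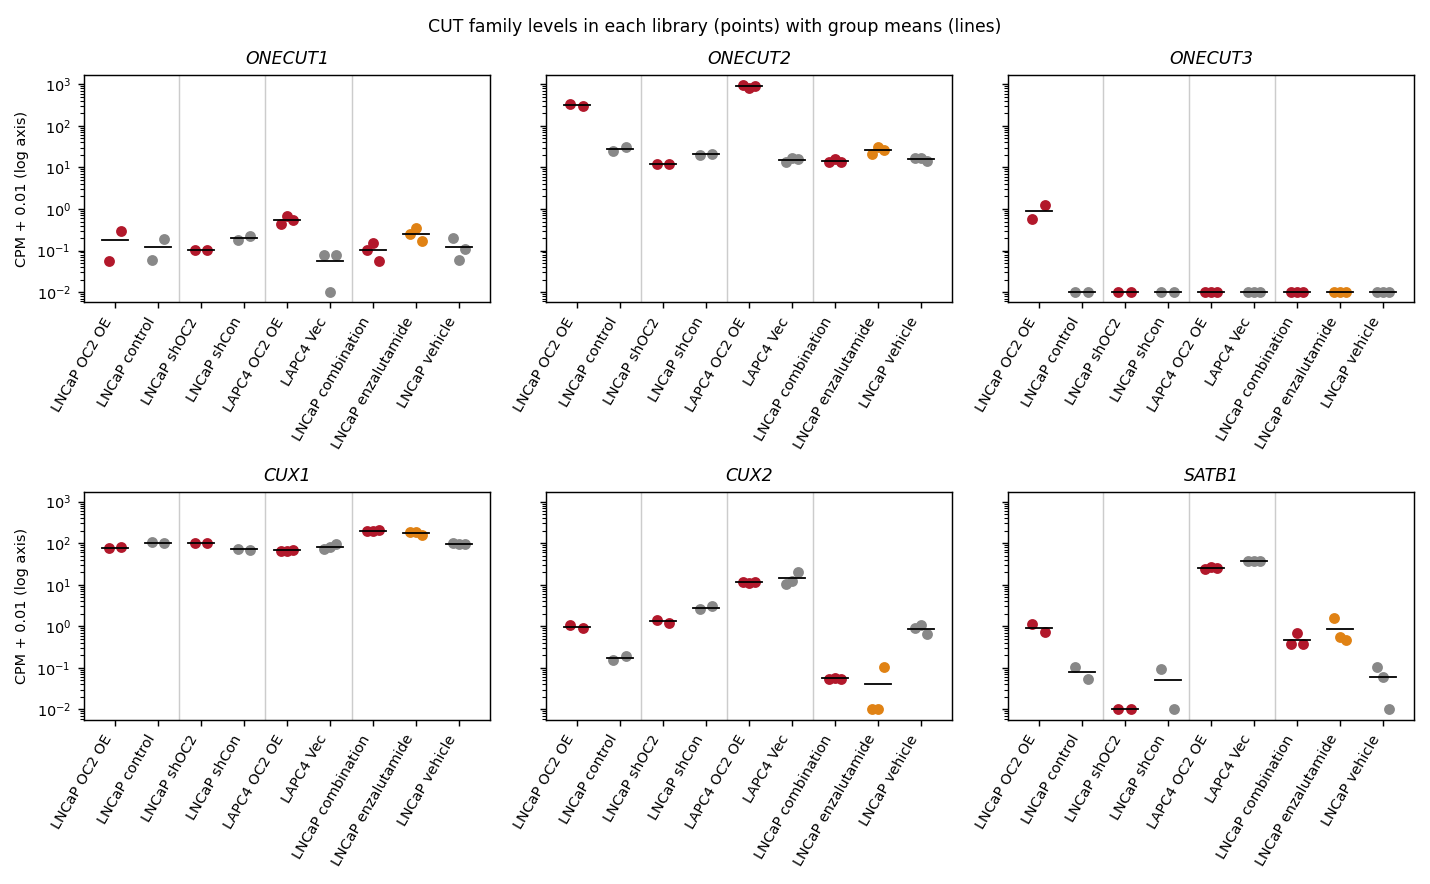
CPM of each gene in each of the 23 libraries (points; log axis, with 0.01 CPM added so that 0 can be drawn) and group means (lines), scaled within each of the 3 tables. Grey marks control, shCon, Vec and vehicle, red OC2 OE, shOC2 and combination, and orange enzalutamide; ONECUT3 is above 0 in LNCaP OC2 OE alone.

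The RNA totals ran from 20964025 to 30465978 counts per library. Some libraries stood apart from others of their group. The chi-square per degree of freedom between library pairs was 36.1 and 20.2 for LAPC4 Vec replicate 3, against 4.68 between the other Vec libraries. It was 16.4 and 16.0 for combination replicate 2, against 3.35 between the others, and 77.1 and 51.7 for 1 enzalutamide column, against 22.4 between the others. Without Vec replicate 3, 12089 genes were called in LAPC4, against 10329 with it, and without that enzalutamide column 13040 were called against vehicle, with 12263 when it was kept. Without combination replicate 2, 7079 genes were called against vehicle, with 8155 when it was kept. All 10 luminal prostate markers checked (among them KLK2, KLK3, TMPRSS2, FOLH1, KRT8, KRT18 and EPCAM) were detected in every group. Their summed level was 4520 to 4720 CPM in LNCaP OC2 OE libraries, against 7420 to 7590 in control, and 2680 to 2890 in LAPC4 OC2 OE, against 3540 to 3800 in Vec. It was 8120 to 8200 CPM with shOC2, against 6440 to 6710 with shCon. In the drug table it was 4970 to 5040 CPM with the combination and 3710 to 4020 with enzalutamide, against 6270 to 6830 with vehicle. Of 10 markers of blood, endothelial, stromal and liver cells, the summed level was between 5.78 and 63.4 CPM in all libraries. PTPRC was at 0 in LNCaP OC2 OE, shOC2, shCon, combination and vehicle, PECAM1 in LNCaP control, shOC2, shCon and LAPC4 Vec, and DCN in LNCaP control, shCon and combination. HBA1 had 168 counts in LNCaP OC2 OE, against 0 in control. The part of these marker differences in the results on the CUT family was not tested. In bulk RNA, fewer cells expressing a gene and less RNA per cell cannot be told apart.

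The first comparison asked what raised OC2 did in LNCaP. ONECUT2 itself was raised strongly, and 3 relatives with almost no reads in control, ONECUT3, CUX2 and SATB1, were higher too, while CUX1 was lower. ONECUT2 had 7002 and 6420 counts in OC2 OE, against 508 and 689 in control, a log2 fold change of 3.51 (SE 0.11, edgeR adjusted p = 9.78e-09). These counts do not separate introduced from endogenous transcript. The background was high: 60.8% of 17046 tested genes passed, 31.6% higher and 29.3% lower, and 784 genes had a larger log2 fold change than ONECUT2. Of the 6 members, 5 passed the filter on low counts and 5 were called. ONECUT3, CUX2 and SATB1 passed it through their OC2 OE counts and ONECUT2 was the gene introduced, so nothing is read from that count.

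Among the paralogs, ONECUT3 had 12 and 26 counts in OC2 OE libraries and 0 in both control libraries. Both OC2 OE libraries were thus above control, at least 6.37-fold higher when control is set at 3 counts per library (edgeR adjusted p = 0.000693). Without OC2 OE replicate 2, which held 26 of these counts, ONECUT3 did not pass the filter and was not tested. ONECUT3 was also at 0 in each of the other 19 libraries of the series. ONECUT1 had 1 and 6 counts in OC2 OE, against 1 and 4 in control, too few to be tested, and the groups overlapped.

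In the CUX and SATB branches, CUX1 had 1602 and 1663 counts in OC2 OE, against 2206 and 2246 in control. Both OC2 OE libraries lay below both controls (log2 fold change -0.43, SE 0.07, edgeR adjusted p = 0.000691), a 1.35-fold lower level. CUX2 had 22 and 19 counts in OC2 OE, against 3 and 4 in control (log2 fold change 2.53, SE 0.47, edgeR adjusted p = 0.00113). SATB1 had 24 and 15 counts in OC2 OE, against 2 and 1 in control. That is a ratio of 13.1 with an exact 95% interval for counting error of 4.16 to 66.1 (edgeR adjusted p = 0.000713). Neither gene's libraries overlapped between the groups, but both stayed near or below 1 CPM, at 0.972 ± 0.102 CPM for CUX2 and 0.925 ± 0.304 CPM for SATB1 in OC2 OE (n = 2).

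The choice of control group mattered for the CUX genes. With the shCon libraries of the same table in place of control, ONECUT2 (log2 fold change 3.93), SATB1 (4.30, adjusted p = 0.000578) and ONECUT3 (adjusted p = 0.000401) were still called higher by edgeR. CUX1 was then not called (0.11, edgeR adjusted p = 0.109), and CUX2 was called lower (-1.53, edgeR adjusted p = 0.000499). The controls differ directly: CUX2 had 63 and 72 counts in shCon, against 3 and 4 in control (log2 fold change 4.06, SE 0.36, edgeR adjusted p = 2.21e-05). CUX1 was lower in shCon, with 1751 and 1694 counts, against 2206 and 2246 in control (-0.54, SE 0.07, edgeR adjusted p = 0.000249). ONECUT2 had 494 and 511 counts in shCon, against 508 and 689 in control, a small difference (-0.41, SE 0.11, edgeR adjusted p = 0.0127) that was lost without control replicate 2 (-0.25, edgeR adjusted p = 0.0773). Of all genes, 56.4% were called between these controls, so the direction of CUX1 and CUX2 under OC2 overexpression in LNCaP rests on which of them is used.

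**Figure D3:**
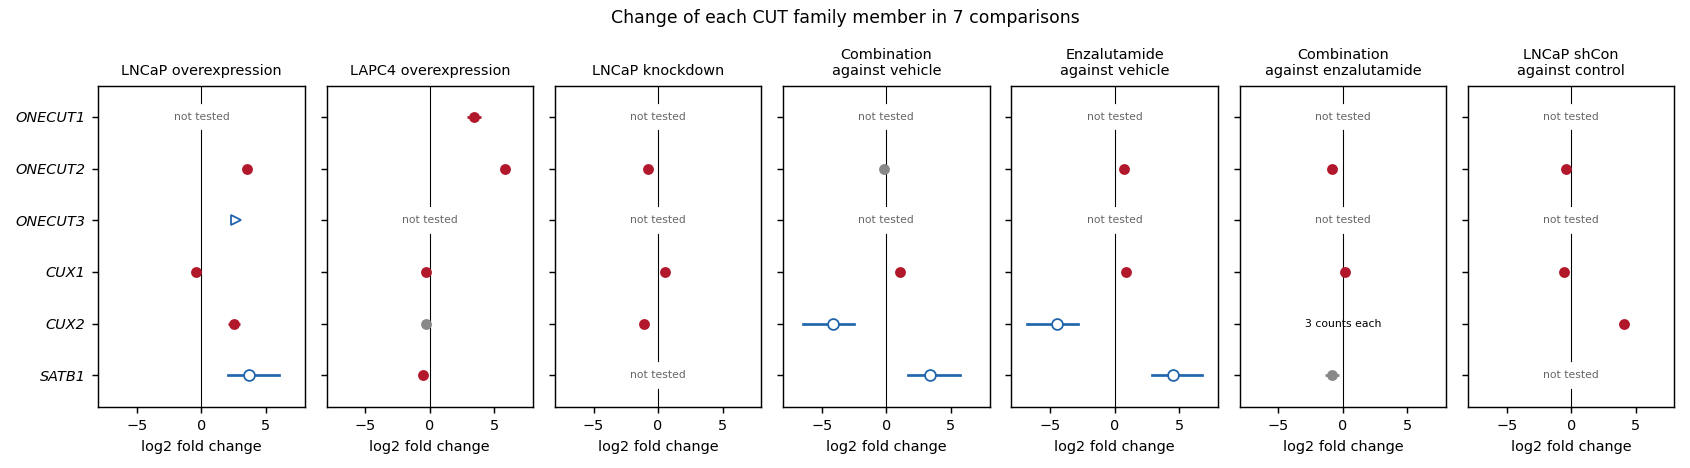
Log2 fold change of each gene in 7 comparisons (x axis; group named first over the group named second, OC2 OE over control or Vec, shOC2 over shCon). Filled points are edgeR estimates with SE bars, red when called and grey when not; open circles are count ratios with exact 95% intervals and the open triangle a lower bound. ONECUT2 sits at 3.51 and 5.85 in the overexpression panels and at -0.77 in the knockdown panel.

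Raised OC2 was tested in LAPC4 as well. There ONECUT2 reached its highest level of the series, ONECUT1 was higher from near 0, and SATB1 and CUX1 were modestly lower. ONECUT2 had 29338, 23749 and 27350 counts in OC2 OE, against 389, 496 and 464 in Vec, a log2 fold change of 5.85 (SE 0.12, edgeR adjusted p = 2.85e-10). Of 16904 tested genes, 61.1% were called (32.1% higher, 29.0% lower), and 388 had a larger log2 fold change. Of the 6 members, 5 passed the filter and 4 were called. ONECUT1 passed it through its OC2 OE counts and ONECUT2 was the gene introduced, so nothing is read from that count.

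ONECUT1 had 13, 20 and 16 counts in LAPC4 OC2 OE, against 2, 0 and 2 in Vec. No libraries overlapped (log2 fold change 3.45, SE 0.55, edgeR adjusted p = 0.000438), though the level in OC2 OE was only 0.547 ± 0.125 CPM (n = 3). ONECUT3 was at 0 in all 6 LAPC4 libraries. SATB1, well expressed in this line, had 716, 805 and 765 counts in OC2 OE, against 1061, 1070 and 1059 in Vec. Every OC2 OE library was below every Vec library (-0.52, SE 0.08, edgeR adjusted p = 0.000242). CUX1 had 1958, 1946 and 2102 counts in OC2 OE, against 2135, 2290 and 2730 in Vec, again without overlap (-0.30, SE 0.09, edgeR adjusted p = 0.0206). This CUX1 call was lost without OC2 OE replicate 1 (-0.26, edgeR adjusted p = 0.0881) and without replicate 2 (-0.28, edgeR adjusted p = 0.0793). CUX2 had 348, 316 and 355 counts in OC2 OE, against 310, 350 and 566 in Vec. Its groups overlapped, and Vec replicate 3, which stood apart over all genes as well, was the high one (-0.31, SE 0.20, edgeR adjusted p = 0.203). Without Vec replicate 1 it was called lower (-0.49, edgeR adjusted p = 0.0342), and without Vec replicate 3 the value was 0.00.

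The lines were compared directly by the difference of their log2 fold changes, LAPC4 minus LNCaP, for which 49.5% of 19633 genes were called (25.4% larger in LAPC4, 24.1% smaller), and 3 members were called. ONECUT2 was raised more in LAPC4 (difference 2.34, SE 0.17, edgeR adjusted p = 1.12e-07). SATB1 differed most among the members, being lower in LAPC4 OC2 OE and higher in LNCaP OC2 OE (-4.15, SE 0.49, edgeR adjusted p = 1.18e-05). With shCon as the LNCaP control its difference was -4.91. CUX2 also differed (-2.85, SE 0.69, edgeR adjusted p = 0.00368), but with shCon as the LNCaP control the difference turned to 1.15 (edgeR adjusted p = 0.0431). CUX1 was lower with OC2 OE in both lines when LNCaP control was used, and the difference did not pass (0.13, SE 0.14, edgeR adjusted p = 0.473), although with shCon it was -0.47 (edgeR adjusted p = 0.0146) and without Vec replicate 3 it was 0.27 (edgeR adjusted p = 0.0294). ONECUT1 did not pass (2.95, SE 1.28, edgeR adjusted p = 0.0723), but did without LNCaP OC2 OE replicate 2 (4.67, edgeR adjusted p = 0.0274), without Vec replicate 3 (3.34, edgeR adjusted p = 0.0498) and with shCon as the LNCaP control (3.56, edgeR adjusted p = 0.0145). ONECUT3 was left out because it has no count in LAPC4. For this test the libraries of both lines were scaled together. The lines came from separate tables and grew in different media, so line, medium and table cannot be told apart here.

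The knockdown asked what less OC2 did in LNCaP. ONECUT2 and CUX2 were lower with shOC2, and CUX1 was higher. ONECUT2 had 263 and 269 counts with shOC2, against 494 and 511 with shCon. The libraries were well separated, and the level was 1.71-fold lower (log2 fold change -0.77, SE 0.09, edgeR adjusted p = 4.84e-05). Of 16585 tested genes, 54.1% were called (27.3% higher, 26.8% lower). Of the 6 members, 3 passed the filter and 3 were called. CUX1 had 2232 and 2233 counts with shOC2, against 1751 and 1694 with shCon (0.52, SE 0.05, edgeR adjusted p = 2.8e-05). CUX2 had 31 and 27 counts with shOC2, against 63 and 72 with shCon (-1.07, SE 0.25, edgeR adjusted p = 0.00488), and the call was lost without shOC2 replicate 2 (-0.95, edgeR adjusted p = 0.0658). ONECUT1 had 2 and 2 counts with shOC2, against 4 and 5 with shCon, and SATB1 had 0 in both shOC2 libraries, against 2 and 0 with shCon. Neither could be tested. CUX1 was at 102 ± 1.43 CPM with shOC2 and at 103 ± 4.80 CPM in LNCaP control (n = 2 each), so its higher level with shOC2 was relative to shCon. CUX2 was at 1.33 ± 0.148 CPM with shOC2 and at 0.162 ± 0.0232 CPM in control (n = 2 each), so its lower level was likewise relative to shCon.

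The drug experiment asked what the OC2 inhibitor added to enzalutamide. CUX1 was higher and CUX2 nearly absent in both treated arms, SATB1 was higher at very low counts, and ONECUT2 was higher with enzalutamide than in either other arm. The enzalutamide columns hold whole counts and the other arms estimated counts, so they came from another counting step. Of 10996 genes above 5 CPM with both combination and vehicle, 98 were at 0 in all enzalutamide columns, and of 11275 genes above 5 CPM with enzalutamide, 10 were at 0 in all the others. Every contrast with enzalutamide alone carries that difference, and treatment and counting step cannot be told apart there. The contrasts with vehicle also share the vehicle libraries. No arm received the inhibitor alone, so combination against vehicle cannot tell the inhibitor from enzalutamide.

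With the combination, CUX1 had 4384, 4334 and 4553 counts, against 2031, 1987 and 2012 with vehicle. All combination libraries were far above vehicle, 2.06-fold (log2 fold change 1.04, SE 0.07, edgeR adjusted p = 3.76e-06). Of 17439 tested genes, 46.8% were called (23.2% higher, 23.6% lower), and of the 6 members 4 passed the filter and 3 were called. CUX2 passed it through its vehicle counts and SATB1 through the enzalutamide columns, so nothing is read from that count. ONECUT2 had 302, 348 and 294 counts with the combination, against 348, 342 and 292 with vehicle. These overlapped (-0.15, SE 0.15, edgeR adjusted p = 0.44). CUX2 had 1 count in each combination library, against 18, 22 and 13 with vehicle. That is 17.8-fold lower, with an exact 95% interval of 5.77 to 89 (edgeR adjusted p = 0.00109). SATB1 had 8, 15 and 8 counts with the combination, against 2, 1 and 0 with vehicle, a ratio of 10.3 with an exact 95% interval of 3.2 to 52.5 (edgeR adjusted p = 0.017). SATB1 passed the filter only with the enzalutamide columns in the fit and was not tested without them. The SATB1 call was also lost without combination replicate 2 (adjusted p = 0.0586), vehicle replicate 2 (0.0537) or vehicle replicate 3 (0.0578), all by edgeR. ONECUT1 had 2, 3 and 1 counts with the combination, against 4, 1 and 2 with vehicle.

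With enzalutamide alone, 70.3% of the genes were called against vehicle (34.7% higher, 35.6% lower), and 4 of 4 members that passed the filter were called. SATB1 passed it through its enzalutamide counts and CUX2 through its vehicle counts, so nothing is read from that count. ONECUT2 had 685, 975 and 864 counts, against 348, 342 and 292 with vehicle (log2 fold change 0.71, SE 0.15, edgeR adjusted p = 0.00139). CUX1 had 6080, 5838 and 5166 counts, against 2031, 1987 and 2012 with vehicle (0.85, SE 0.07, edgeR adjusted p = 2.17e-06). For both genes no enzalutamide column overlapped vehicle. Scaling by library totals gave 1.05 for ONECUT2 and 1.20 for CUX1, with the median of all genes at 0.35 in place of 0.01. CUX2 had 0, 0 and 3 counts, against 18, 22 and 13 with vehicle, 21.9-fold lower with an exact 95% interval of 7.09 to 109 (edgeR adjusted p = 0.000167). SATB1 had 52, 17 and 15 counts, against 2, 1 and 0 with vehicle, with 1 column well above the rest and all above vehicle, a ratio of 22.6 with an exact 95% interval of 7.48 to 112 (edgeR adjusted p = 0.00146). Without that column the fitted log2 fold change of SATB1 was 3.22 in place of 4.02. For CUX2, leaving out the column with 3 counts gave -7.38 in place of -4.58. ONECUT1 had 8, 11 and 5 counts, against 4, 1 and 2 with vehicle, and was not tested.

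Set directly against enzalutamide, the combination had less ONECUT2, with 302, 348 and 294 counts, against 685, 975 and 864 with enzalutamide. No library overlapped (log2 fold change -0.86, SE 0.15, edgeR adjusted p = 0.000528). Of all genes, 61.9% were called (31.4% higher, 30.4% lower), and 2 of the 4 members that passed the filter were called. CUX1 was called slightly higher (0.19, SE 0.07, edgeR adjusted p = 0.0317), but scaling by library totals turned it to -0.07 (edgeR adjusted p = 0.429), with the median of all genes at -0.28 in place of -0.02. That call was also lost without combination replicate 1 (edgeR adjusted p = 0.0513) or 3 (0.083) and without 1 of the enzalutamide columns (0.119). SATB1 was not called (-0.87, SE 0.56, edgeR adjusted p = 0.2), and CUX2 had 3 counts in all in each arm, which allows no fold.

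Genes known to work with ONECUT factors were read from lists, none of them independent evidence, since they were chosen with earlier results of these data known. In LNCaP OC2 OE, neural factors, the transcription factors that act beside ONECUT genes in retina and spinal cord, included several that were near 0 in control and detected in OC2 OE. Of 16 listed, 8 were called higher, 1 lower and 1 not, and 6 were too low to be tested, where 60.8% of all genes were called. At least 6 of the 8 passed the filter through their OC2 OE counts, so the list is described by its genes and nothing is read from the counts. PAX6, an eye and pancreas factor, had 139 counts in all in OC2 OE, against 2 in control. POU4F2, a retinal ganglion cell factor, had 148 counts in OC2 OE, against 0 in control, at least 24.8-fold higher. LHX1, a kidney and spinal cord factor, was at least 14.4-fold higher and RORB, a retinal nuclear receptor, at least 4.19-fold higher. POU4F2, RORB and PAX6 had 0 counts in shCon as well, and LHX1 had 1. LHX2 was not called against control (4.86 ± 0.158 CPM in OC2 OE and 5.01 ± 0.165 in control, n = 2 each). In LAPC4 OC2 OE the same list had 1 higher and 3 lower of 6 tested, where 61.1% of all genes were called. LHX1 was the higher one, at 1.88 ± 0.331 CPM in OC2 OE and 0.0458 ± 0.0526 in Vec (n = 3 each; log2 fold change 5.23, edgeR adjusted p = 9.69e-06). LHX1 passed the filter through its OC2 OE counts, so nothing is read from the count of calls there. MNX1, a motor neuron and pancreas factor, was lower with shOC2 than with shCon, at 5.13 ± 0.411 CPM against 15.8 ± 1.60 CPM (-1.62, edgeR adjusted p = 5.02e-06). It was the 1 call among 3 tested, where 54.1% of all genes were called. With the combination, 1 neural factor was higher and 1 lower of 4 tested, where 46.8% of all genes were called.

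Hepatic and pancreatic factors, which work with HNF6 in liver and pancreas, had 6 higher and 2 lower of 9 tested in LAPC4 OC2 OE, where 61.1% of all genes were called. GATA4 and others of the 6 passed the filter through their OC2 OE counts, so nothing is read from that count. GATA4, an endoderm and heart factor, had 46 counts in OC2 OE, against 4 in Vec (3.36, edgeR adjusted p = 0.000598). FOXA2, a pioneer factor of liver and lung, had 55 counts, against 10 (2.37, edgeR adjusted p = 0.00153). In LNCaP OC2 OE the same list had 5 higher and 3 lower of 9 (median 0.24, against 0.02, with 60.8% of all genes called), and against shCon 3 higher and 3 lower of 9. NR0B2, a repressor of bile acid synthesis, had 0 counts in OC2 OE, against 28 in control, at least 4.64-fold lower. NR0B2 passed the filter through its control counts, so nothing is read from the count against control. With shOC2 the hepatic list had 1 higher and 5 lower of 9 (median -0.47, against 0.00, with 54.1% called). PDX1, the pancreas homeobox factor, had 11 counts with shOC2, against 66 with shCon (-2.41, edgeR adjusted p = 0.00124). PDX1 passed the filter through its shCon counts, so nothing is read from the count of calls with shOC2. With the combination the list had 4 higher and 1 lower of 10 (median 0.36, against 0.01, with 46.8% called).

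Homeobox genes of other classes expressed in prostate had 7 higher and 4 lower of 18 tested in LNCaP OC2 OE and 4 higher and 12 lower of 19 in LAPC4 OC2 OE. Their medians were 0.01 and -0.41, against 0.02 and 0.00 over all genes, of which 60.8% and 61.1% were called. HOXA9 in LNCaP and ZEB1 in LAPC4 passed the filter through their OC2 OE counts, and HOXA13 through its control counts. Nothing is therefore read from these counts of calls. In LNCaP OC2 OE, HOXA9 was at 4.76 ± 0.225 CPM, against 0.325 ± 0.0192 in control (n = 2 each; 3.84, edgeR adjusted p = 2.48e-06), with 3 counts in all in shCon, while HOXA13 was at 0.284 ± 0.134 CPM, against 3.47 ± 0.319 in control (-3.60, edgeR adjusted p = 1.49e-05). HOXA13 was however at 0 in shCon, at least 25.1-fold lower than in control, so its lower level in OC2 OE held against control and not against shCon. In LAPC4 OC2 OE, ZEB1, a zinc-finger and homeobox repressor of epithelial genes, was at 16.7 ± 1.50 CPM, against 0.161 ± 0.0201 in Vec (n = 3 each; 6.66, edgeR adjusted p = 1.81e-09). ZEB1 was among the 4 called higher there, beside 12 called lower. With shOC2 the class had 5 higher and 6 lower of 15 (median -0.18), where 54.1% of all genes were called. With the combination it had 8 higher and 6 lower of 18 (median 0.15), where 46.8% were called. ZFHX3, a large zinc-finger homeobox protein, was at 137 ± 12.2 CPM with shOC2, against 59.6 ± 2.09 with shCon (1.20, edgeR adjusted p = 7.8e-07).

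Chromatin and processing partners of CUX1 and SATB1 moved in both directions. They had 8 higher and 4 lower of 17 in LNCaP OC2 OE, 5 higher and 4 lower in LAPC4 OC2 OE, 9 higher and 6 lower with shOC2 and 4 higher and 5 lower with the combination. Over all tested genes the shares called were 60.8%, 61.1%, 54.1% and 46.8% in these comparisons, and the list's medians were 0.17, 0.04, 0.20 and 0.04, against 0.02, 0.00, 0.00 and 0.01 over all genes. KAT2B, an acetyltransferase, was lower in LNCaP OC2 OE (15.7 ± 0.232 CPM, against 24.5 ± 1.24 in control; -0.65, edgeR adjusted p = 0.000272) and higher in LAPC4 OC2 OE (17.0 ± 1.12 CPM, against 4.94 ± 1.19 in Vec; 1.78, edgeR adjusted p = 1.02e-05). CHD4, a remodeller, was not called in any of these 4 comparisons.

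Genes reported elsewhere to respond to CUX1 had 4 higher and 4 lower of 12 tested in LNCaP OC2 OE and 7 higher and 3 lower of 12 in LAPC4 OC2 OE, where 60.8% and 61.1% of all genes were called. The list's medians were -0.08 and 0.27, against 0.02 and 0.00. CUX1 itself was higher with shOC2 than with shCon (0.52), and with the combination than with vehicle (1.04). The combination also holds enzalutamide, and with enzalutamide alone CUX1 was higher than with vehicle too (0.85). With shOC2 its level was near that of LNCaP control (102 ± 1.43 and 103 ± 4.80 CPM, n = 2 each). With shOC2, 7 were higher and 4 lower of 11 (median 0.63, against 0.00 over all genes, of which 54.1% were called). With the combination, 2 were higher and 6 lower of 12 (median -0.66, against 0.01, with 46.8% called). PIK3IP1, which restrains PI3-kinase, was at 16.5 ± 0.732 CPM with shOC2, against 5.61 ± 0.123 with shCon (n = 2 each; 1.56, edgeR adjusted p = 2.26e-06). It was at 49.3 ± 4.60 CPM with the combination, against 16.6 ± 0.622 with vehicle (n = 3 each; 1.57, edgeR adjusted p = 2.76e-05). CDKN1A, a cell cycle inhibitor, was higher with shOC2 (430 ± 14.0 CPM, against 168 ± 7.15 with shCon; 1.36, edgeR adjusted p = 7.93e-08), and CCNA2, a cyclin, was lower (46.0 ± 2.82 CPM, against 92.2 ± 8.32; -0.99, edgeR adjusted p = 3.74e-06). SNAI2, a repressor of epithelial genes, had 9 counts with the combination, against 285 with vehicle (-5.03, edgeR adjusted p = 5.6e-06). SNAI2 passed the filter through its vehicle counts, so nothing is read from the count of calls with the combination.

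Genes reported to respond to SATB1 had 5 higher and 4 lower of 11 tested in LNCaP OC2 OE and 4 higher and 3 lower of 13 in LAPC4 OC2 OE, where 60.8% and 61.1% of all genes were called. The list's medians were 0.33 and 0.09, against 0.02 and 0.00. VIM, an intermediate filament of mesenchymal cells, was at 90.4 ± 1.45 CPM in LNCaP OC2 OE, against 8.29 ± 1.05 in control (n = 2 each; 3.43, edgeR adjusted p = 6.9e-09). Against shCon the log2 fold change was 1.73 (edgeR adjusted p = 4.8e-08). In LAPC4 OC2 OE it was at 829 ± 67.7 CPM, against 1.44 ± 0.469 in Vec (n = 3 each; 9.17, edgeR adjusted p = 1.85e-10). With shOC2 it was at 3.70 ± 0.205 CPM, against 27.1 ± 3.57 with shCon (n = 2 each; -2.86, edgeR adjusted p = 1.63e-07), although the list had 7 higher and 1 lower of 10 (median 0.43, against 0.00 over all genes, of which 54.1% were called). With the combination, 4 were higher and 3 lower of 12 (median -0.01, against 0.01), where 46.8% of all genes were called. SATB1 was higher in LNCaP OC2 OE and lower in LAPC4 OC2 OE, while VIM was higher in both.

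ONECUT2's own pattern over the 4 comparisons that share no library (LNCaP and LAPC4 OC2 overexpression, LNCaP knockdown, combination against vehicle) was nearest, by Euclidean distance between log2 fold changes, to that of ETS1 among 11699 genes. ETS1, a transcription factor of blood vessels and lymphocytes, was at 0.789 from ONECUT2, with log2 fold changes of 3.75, 5.88, -1.28 and -0.69. The next were WDR72 (1.66), LAT2 (1.84), WLS (1.92) and C1QL1 (1.97). LAT2 and WLS were at 0.04 and -0.15 with shOC2, against -0.77 for ONECUT2. Distances describe these 4 values only.

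**Figure D4:**
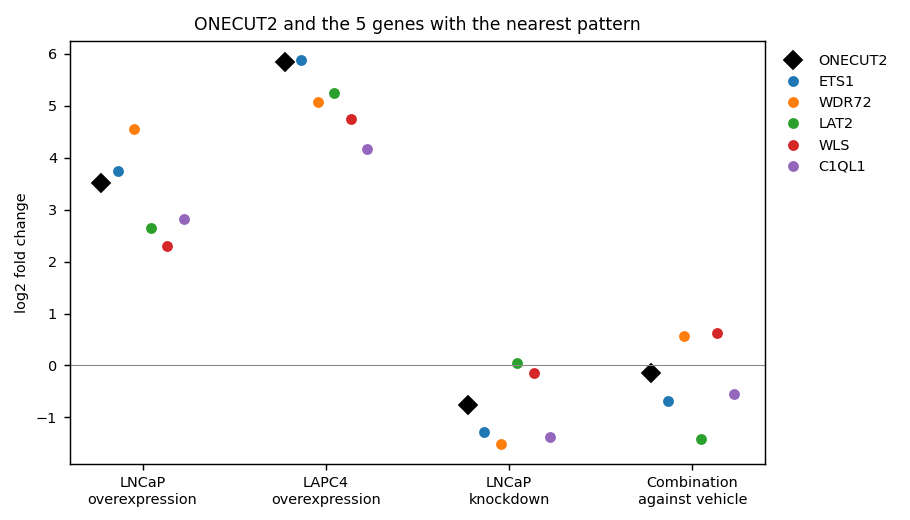
Log2 fold changes of ONECUT2 (black diamond) and the 5 genes nearest to it in 4 comparisons (x axis) that share no library. All 6 are high in both overexpression comparisons, ETS1 lies closest (3.75 and 5.88, beside 3.51 and 5.85 for ONECUT2), and in the knockdown the genes lie between -1.52 and 0.04.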

How the data were processed

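RNA counts of 23 libraries came in 3 tables. The submitters' processing notes name FastQC 0.9.0, Bowtie2 and hg38. The counter, strand setting and annotation release are not given here. The authors deposited whole read counts for LAPC4 and the enzalutamide columns, and estimated counts, rounded here, for all other LNCaP libraries. The enzalutamide column names do not tie each to a sample, so they stand for their group only. In the drug experiment 1105 repeated symbol lines were summed, and 62.5% of its features matched a current symbol (LAPC4 98.6%, LNCaP overexpression and knockdown 99.5%).

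Samples were grouped by their labels. Each comparison used edgeR 4.0.16 (R 4.3.3): filterByExpr (minimum count 10), TMM scaling, a two-sided quasi-likelihood F-test and Benjamini-Hochberg adjustment over all tested genes, called below 0.05. Overexpression and knockdown were fitted on their own groups, the 3 drug arms together, and the difference between lines as an interaction. CPM levels were scaled over all libraries of a table. Bounds use 3 counts per library, and intervals are exact 95% binomial (Clopper-Pearson). Both cover counting error only, since reads carry no molecular identifiers. Gene models and sequences are from GENCODE 29. The procedure was tested on simulated data. Alternatives were RLE scaling, no low-count filter, DESeq2 1.42.0, other samples in the fit, the replicate number as a block, shCon as control, each library left out and, added after seeing the data, library totals and shCon in the interaction and for the lists.

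The text names the members, per list the 4 called genes of largest change and the 2 uncalled genes of highest level at most, and the 5 genes nearest to ONECUT2's pattern, among genes whose larger group mean reached 1 CPM in every comparison. Members and lists were chosen with earlier results of these data known. Some genes that this rule would name are not reported here.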

Additional observations from a re-analysis of the deposited data

Results flagged for a closer look

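Members of the CUT family whose response to OC2 overexpression differed between the lines are given as LAPC4 minus LNCaP differences of log2 fold change, each tested as an interaction. ONECUT2 differed by 2.34 (edgeR adjusted p = 1.12e-07), with a larger increase in LAPC4. CUX2 differed by -2.85 (edgeR adjusted p = 0.00368). Its LAPC4 groups overlapped, its LNCaP counts were below 30 in each library, and the sign depends on the LNCaP control used. SATB1 differed by -4.15 (edgeR adjusted p = 1.18e-05), lower with OC2 OE in LAPC4, where it was well expressed, and higher in LNCaP, where control held 3 counts in all. No explanation for these differences was tested.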

How the results depend on the processing

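Of 459 alternative values, 431 stayed the same. For a member this means the same direction and side of the threshold. For a count of called genes it means a size within a set ratio of the main fit. A member not tested in a setting gave no value there and is not counted among these. With shCon in place of control, LNCaP CUX1 was 0.11 and CUX2 -1.53 in OC2 OE, and in the LAPC4 minus LNCaP difference ONECUT1 was 3.56 (called), CUX1 -0.47 and CUX2 1.15. Without the low-count filter, CUX1 in combination against enzalutamide (0.19) and ONECUT2 in shCon against control (-0.42, edgeR adjusted p = 0.0711) were no longer called. With library totals these were -0.07 and -0.26. Leaving out 1 library at a time gave these ranges of log2 fold change: in LAPC4 OC2 OE, -0.38 to -0.18 for CUX1 and -0.49 to 0.00 for CUX2 (0.00 without Vec replicate 3); with shOC2, -1.18 to -0.95 for CUX2; with the combination against vehicle, 2.61 to 4.03 for SATB1; with enzalutamide against vehicle, 3.22 to 4.88 for SATB1 and -7.38 to -4.06 for CUX2; with the combination against enzalutamide, 0.14 to 0.24 for CUX1 and -0.03 to 3.29 for CUX2, which has 3 counts in each arm; in shCon against control, -0.58 to -0.25 for ONECUT2; and between the lines, 1.79 to 4.67 for ONECUT1 and 0.05 to 0.27 for CUX1. The knockdown called 5076 to 7863 genes in these fits, against 8969 with all libraries, and 5076 and 5524 without shOC2 replicate 1 and 2. The cause of these changes was not tested. Library totals also shifted the split of higher to lower calls, to 8560 and 4209 for enzalutamide against vehicle (6053 and 6210 with TMM), 3895 and 7858 for combination against enzalutamide (5484 and 5306), 4873 and 3452 for combination against vehicle (4045 and 4110), 6393 and 3365 for shCon against control (4757 and 4710) and 3928 and 5050 for shOC2 against shCon (4525 and 4444). Same-numbered libraries did not deviate together (correlations -0.13 to 0.16), so the numbers were not taken as pairing. With the replicate block, 11256 genes were called for LNCaP OC2 OE, 9808 for LAPC4 OC2 OE, 8521 for shOC2 and 9172 for shCon against control. For the combination against vehicle the block was fitted without the enzalutamide columns and called 9375, against 9393 without these columns and with no block. No member tested under the block changed its call, and SATB1 with the combination was not tested there. Depth limits ONECUT1, ONECUT3 and, in LNCaP, CUX2 and SATB1, which have few counts.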
